A study of Mus musculus with 9 samples.

Results

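The genes described here are the mouse replication histone genes of the clusters named Hist1, Hist2, Hist3 and Hist4. Of the 32285 genes in the count matrices, 67 carry a symbol that starts with Hist1h, Hist2h, Hist3h or Hist4h, and the 31 with at least 20 UMIs (unique molecular identifiers, each standing for 1 captured RNA molecule) summed over the 9 libraries are the members. They comprise 4 genes for the linker histone H1, 8 for H2A, 8 for H2B, 5 for H3 and 6 for H4. By locus, 19 belong to Hist1, 9 to Hist2, 2 to Hist3 and 1 to Hist4. The members were chosen by their UMI totals, which are therefore given as a description: Hist1h2be had 4588 of the 15086 member UMIs, Hist1h1c 3018, Hist1h2bc 2324, Hist1h4h 896, Hist3h2a 802, Hist1h1e 790, Hist2h2be 397 and Hist1h4d 294. Just inside the limit were Hist1h2br and Hist2h3b with 21 UMIs each and Hist2h2ab with 22, and just outside were Hist1h2bh and Hist1h3f with 18 each and Hist1h1a with 17. The 36 genes left out held 291 UMIs together.

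The data are single-nucleus RNA counts from hearts of wild-type male mice aged 9 to 10 weeks, in 3 groups of 3 libraries. NS-Sham mice had the chest opened and were given normal saline, NS-I/R mice had the left anterior descending coronary artery closed for 45 min and reopened for 24 h (ischemia and reperfusion) with normal saline, and Enpa-I/R mice had the same ischemia and reperfusion with enpatoran, an antagonist of the RNA sensor TLR7. Enpatoran was injected into the peritoneum in 2 doses of 5 mg/kg, the first 1 h before occlusion. The labels disagree on the second dose, giving it either 2 h later or directly after the ischemia, and enpatoran without ischemia is not among the groups, so what the drug does without injury was not measured. The labels number the replicates without saying that each is a separate animal, so p-values measure only the spread between these libraries.

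The libraries held 19651794 to 38970153 UMIs in 4079 to 8198 barcodes, and 41979 of 56766 barcodes were kept as nuclei. Clusters formed without the histone genes were named from marker genes, and 26 of the 27 clusters took a cell type name; the remaining one held 422 NS-I/R nuclei, 11 Enpa-I/R nuclei and none from NS-Sham. One library stood apart within its group: NS-I/R 3 had 28.2% of its cardiomyocyte-like nuclei in the cluster that held 47.2% and 48.5% of them in NS-I/R 1 and 2 and 0% in NS-Sham. It had 19.5% in the main NS-Sham cluster against 4.82% and 6.40%. Where a call or a value rests on this library, the value without it is given. No pair of libraries shared more than 0.34% of the smaller one's barcodes.

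Replication histones package newly made DNA, and their genes are switched on together when a cell enters S phase. Their messenger RNAs are unusual in that most end in a short stem-loop bound by the stem-loop binding protein Slbp instead of a poly(A) tail, and they are degraded when replication stops. Several histone genes are also transcribed in cells that no longer divide, and then yield polyadenylated messages that end farther downstream. The libraries were primed from poly(A) at the 3′ end, so RNA without a poly(A) tail is poorly captured and these counts do not measure the stem-loop form of the messages. Most cardiac muscle cells of an adult mouse do not divide.

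The stem-loop is shown because it is the element that sets these genes apart from other messages. A search of the GENCODE M21 transcripts (GRCm38) used a fixed histone pattern, a stem of 6 bases closing a loop of 4. It matched the chosen transcript of 24 of the 31 members, in 5 versions. The pattern allowed only some bases at most positions, so it partly sets how few versions and matches there are. The capitals mark the 2 arms of the stem, and each line names the member with the most UMIs that carries the version.
Hist1h2be, as in 15 other members: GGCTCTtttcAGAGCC
Hist1h4h, as in 3 other members: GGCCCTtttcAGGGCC
Hist1h4i, as in 1 other member: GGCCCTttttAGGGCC
Hist2h2ac, in 1 member: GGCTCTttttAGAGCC
Hist1h3e, in 1 member: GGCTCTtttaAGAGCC
The first version was carried by H1, H2A, H2B and H3 members, whereas the second and the third were carried by H4 members. Of all 141767 annotated transcripts, 89 matched the pattern. They belonged to 74 genes, 44 of which had a Hist1h to Hist4h symbol.

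For each gene the coding transcript with the most exons, and then the greatest length, was chosen, so shorter annotated transcripts are not described. In most members with stem-loops the chosen transcript ran on past it. In 15 of the 24 at least 300 bases followed the stem-loop, and these 15 held 69.14% of all member UMIs. Hist1h2be had 1861 bases after it, Hist3h2a 1643, Hist1h1e 1153 and Hist1h1c 840, while Hist1h4h had 46 and Hist1h2ap 3. Among the 36 histone genes below the UMI limit, 19 had a stem-loop and 3 of these had at least 300 bases after it. This is a description of which genes reached the limit, since UMIs were what chose them.

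Hist1h2be, the member with the most UMIs, has an unusual gene model. In GENCODE M21 it spans 37455 bases of chromosome 13 on the minus strand (GRCm38, chr13:23583670-23621124), with 2 exons and an intron of 34949 bases. Its distal end overlaps Hist1h1e and Gm11398 on the same strand, so molecules from that overlap cannot be assigned with certainty. Hist1h2bc (an intron of 7554 bases) and Hist1h2br were the other members with more than 1 exon. These 3 genes held 45.96% of member UMIs, and whether intron reads were counted is not given in the sources used here. Near-identical copies within the Hist2 locus and among the H4 genes may also share reads, so values are summed by histone type as well as given per gene.

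RefSeq lists 2 start sites for Hist1h2be, and the 250 bases before each are shown because most of the difference between groups described next comes from this gene. The sequences are from RefSeq (GRCm38.p6), on the minus strand, with 2 motifs in capitals: the octamer ATTTGCAT, bound by POU factors and typical of H2B promoters, and CCAAT, the NF-Y motif, each on either strand (CCAAT reads ATTGG on the other).
Hist1h2be distal start, chr13:23621095-23621344: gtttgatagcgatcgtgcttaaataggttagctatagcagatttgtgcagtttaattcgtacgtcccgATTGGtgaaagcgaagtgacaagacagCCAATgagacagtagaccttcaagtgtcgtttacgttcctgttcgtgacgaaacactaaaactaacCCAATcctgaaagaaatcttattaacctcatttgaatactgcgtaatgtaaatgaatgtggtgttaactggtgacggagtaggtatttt
Hist1h2be proximal start, chr13:23585971-23586220: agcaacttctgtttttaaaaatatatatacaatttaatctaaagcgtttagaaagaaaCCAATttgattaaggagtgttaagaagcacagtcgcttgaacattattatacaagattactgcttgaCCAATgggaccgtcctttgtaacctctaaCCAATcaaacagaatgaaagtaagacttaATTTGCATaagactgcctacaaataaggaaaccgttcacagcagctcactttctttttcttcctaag
The proximal window held 1 octamer, starting 67 bases before the start site, and 3 CCAAT motifs. The distal window held 3 CCAAT motifs and no octamer. Over windows of 250 bases before to 50 bases after the start, RefSeq entries matched 27 members. Of these 27, 7 held the octamer (1.735% of all 32851 windows in the table do), 24 held CCAAT (37.41%) and 14 held TATAAA (13.62%). The counts do not say which start site was used, and a motif match is a description of the letters only.

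Levels are in CPM, the UMIs of a gene per 1000000 UMIs of the population summed. Differences are log2 fold changes with standard errors (SE) from edgeR's quasi-likelihood test on the summed counts of the 9 libraries, with Benjamini-Hochberg adjustment over all genes tested and a threshold of 0.05. Over all nuclei, the 31 members summed to 73.8 ± 6.95 CPM in NS-Sham, 32.0 ± 11.0 CPM in NS-I/R and 53.7 ± 5.76 CPM in Enpa-I/R (mean ± SD, n = 3 libraries each). Without Hist1h2be the other 30 summed to 37.8 ± 7.31, 27.9 ± 7.33 and 34.0 ± 4.01 CPM, and these 3 ranges overlapped. The H2B genes summed to 45.1 ± 5.08, 11.96 ± 5.04 and 28.5 ± 2.80 CPM in the same order, but without Hist1h2be they stood at 9.10 ± 1.79, 7.88 ± 1.40 and 8.82 ± 0.996 CPM. These sums were not tested.

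Of the 31 members, 16 passed the filter on low counts over all nuclei, and 5 of these 16 were lower in NS-I/R than in NS-Sham while none was higher. Among all 18066 genes tested 47.8% passed the threshold, 23.9% as lower, so the members' share in either direction was below the background and their share of lower calls above it. The 16 log2 fold changes ran from -3.28 to 1.06 with a median of -0.70, against 0.0017 for all genes, and 13 were below 0. With library totals in place of the TMM scaling, chosen after seeing the data, the median of all genes was 0.13, with 5383 genes called as higher and 3289 as lower in place of 4313 and 4318, and 3 members were lower. Without NS-I/R 3, 8 members were called in place of 5, beside 58.5% of all genes. Leaving out 1 library at a time gave counts from 2 (without NS-I/R 1) to 8, and the other 7 omissions gave 3 or 4.

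**Figure D1:**
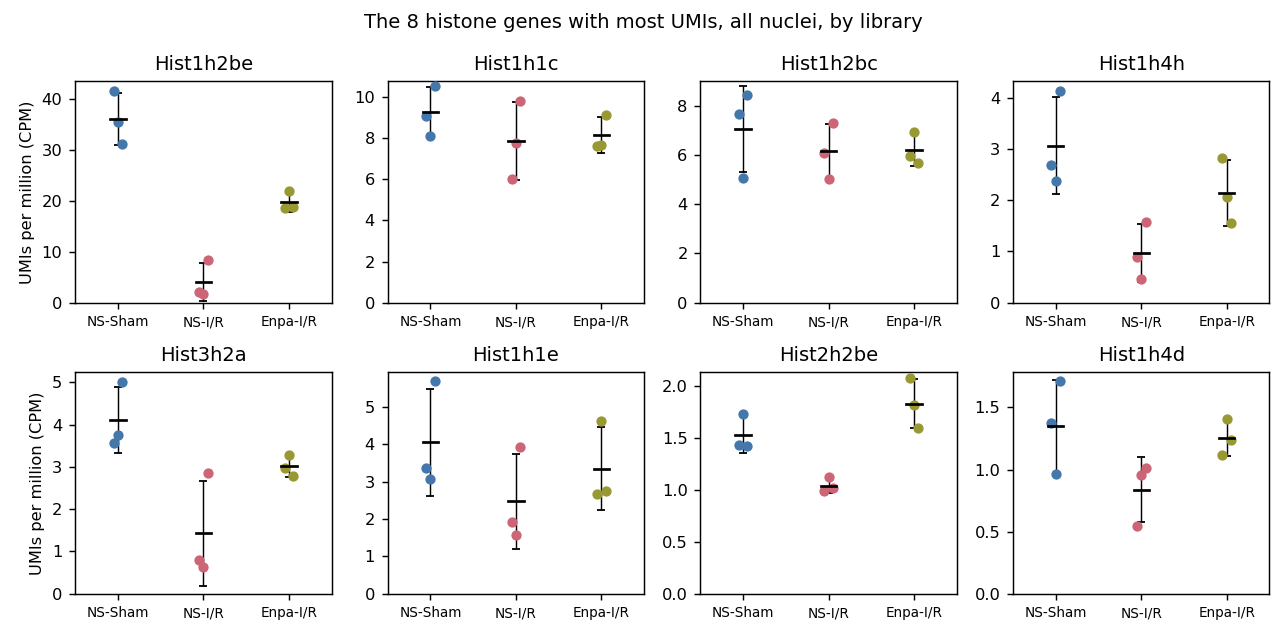
Levels of the 8 histone genes with the most UMIs over all nuclei, in CPM (linear axes from 0), by library; each point is 1 library, bars are the group mean and error bars the SD of 3 libraries. Hist1h2be separates all 3 groups, with NS-I/R at 1.71 to 8.36 CPM, whereas the Hist1h1c and Hist1h2bc groups overlap.

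The H2B genes encode a core histone that pairs with H2A. Hist1h2be measured 41.4, 35.4 and 31.1 CPM in NS-Sham 1, 2 and 3, 2.17, 1.71 and 8.36 CPM in NS-I/R and 18.6, 21.8 and 18.7 CPM in Enpa-I/R. No library of one group reached into another, and NS-I/R 3 was the highest of its group by a wide margin. The fall from NS-Sham to NS-I/R was 3.28 on the log2 scale (log2 fold change -3.28 ± 0.45 SE, adjusted p = 0.000314, edgeR), and -4.33 without NS-I/R 3. Of all genes tested, 0.282% had a lower log2 fold change in this contrast. It held in each of the 9 fits that left out a library, from -4.33 to -2.89. Hist1h2bc, another H2B gene, measured 7.67, 5.08 and 8.42 CPM in NS-Sham, 6.08, 5.04 and 7.30 CPM in NS-I/R and 5.94, 6.92 and 5.69 CPM in Enpa-I/R. Its groups overlapped, and its log2 fold change of -0.32 ± 0.21 did not pass the test (adjusted p = 0.239, edgeR). Hist2h2be measured 1.43, 1.74 and 1.43 CPM in NS-Sham against 0.988, 1.12 and 1.02 CPM in NS-I/R, and fell by 0.69 on the log2 scale (SE 0.25, adjusted p = 0.0414, edgeR). That call was lost whichever library was left out, with adjusted p from 0.0535 (without Enpa-I/R 3) to 0.156 (without NS-Sham 2) and log2 fold changes from -0.76 to -0.55. DESeq2 (adjusted p = 0.0861) and the replicate block (0.0703) also lost it.

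The H2A genes encode the partner of H2B. Hist3h2a measured 3.55, 3.76 and 5.00 CPM in NS-Sham, 0.790, 0.625 and 2.86 CPM in NS-I/R and 2.97, 3.28 and 2.79 CPM in Enpa-I/R. NS-I/R 3 again lay above its group, within the Enpa-I/R range. Hist3h2a fell by 1.66 on the log2 scale in NS-I/R (SE 0.46, adjusted p = 0.0137, edgeR), by 2.64 without NS-I/R 3, and the call was lost without NS-I/R 1 (-1.36, adjusted p = 0.0512). Hist2h2aa1, Hist1h2ap, Hist2h2ac and Hist1h2ae, with 61 to 141 UMIs each in the nuclei kept, were tested and not called, at log2 fold changes of 0.35, 0.08, -0.35 and -0.76. Hist2h2ac was called without NS-I/R 3, at -1.26 (adjusted p = 0.0426, edgeR). The 8 H2A members summed to 6.83 ± 1.38 CPM in NS-Sham, 4.13 ± 1.75 CPM in NS-I/R and 6.29 ± 1.46 CPM in Enpa-I/R.

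The H4 genes all encode the same core histone. Hist1h4h measured 2.68, 2.38 and 4.14 CPM in NS-Sham, 0.889, 0.458 and 1.57 CPM in NS-I/R and 2.82, 2.05 and 1.55 CPM in Enpa-I/R. Its NS-Sham and NS-I/R libraries did not overlap, and it fell by 1.78 on the log2 scale (SE 0.42, adjusted p = 0.00624, edgeR), a call that held without each library in turn (-2.29 to -1.41). Hist2h4 measured 1.06, 1.03 and 0.428 CPM in NS-Sham and 0.494, 0.208 and 0.508 CPM in NS-I/R, so these groups overlapped. Its log2 fold change of -1.23 ± 0.44 (adjusted p = 0.0406, edgeR) stayed under the threshold only without NS-Sham 3 or NS-I/R 3, and the other omissions gave -1.38 to -0.89 with adjusted p from 0.0583 to 0.164. DESeq2 (adjusted p = 0.0676) and the replicate block (0.0758) lost it too. Hist1h4d measured 1.37, 0.965 and 1.71 CPM in NS-Sham and 0.543, 0.958 and 1.02 CPM in NS-I/R, and was not called (-0.77 ± 0.33, adjusted p = 0.0760, edgeR). Hist1h4i stood at -0.54 ± 0.56 (adjusted p = 0.444, edgeR), and at -1.41 (adjusted p = 0.0399) without NS-I/R 3. The 6 H4 members summed to 6.42 ± 1.22 CPM in NS-Sham, 3.37 ± 1.36 CPM in NS-I/R and 5.50 ± 1.06 CPM with enpatoran.

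The 5 H3 members were too sparse to test singly, at 193 UMIs together, and their sums of 1.13 ± 0.532, 0.931 ± 0.102 and 1.09 ± 0.337 CPM overlapped between all groups. The H1 genes encode linker histones, which bind where DNA enters and leaves the nucleosome. Hist1h1c measured 9.10, 8.13 and 10.6 CPM in NS-Sham, 6.03, 7.79 and 9.79 CPM in NS-I/R and 7.61, 7.68 and 9.15 CPM in Enpa-I/R. Its groups overlapped and it was not called (-0.36 ± 0.20, adjusted p = 0.157, edgeR), although without NS-I/R 3 it was, at -0.52 (adjusted p = 0.0307). Hist1h1e measured 3.37, 3.09 and 5.71 CPM in NS-Sham and 1.93, 1.58 and 3.93 CPM in NS-I/R, with a log2 fold change of -0.83 ± 0.38 (adjusted p = 0.0937, edgeR) that became -1.30 (adjusted p = 0.00753) without NS-I/R 3. Hist1h1d had the highest log2 fold change of the 16, at 1.06 ± 0.61 (adjusted p = 0.173, edgeR), and its NS-I/R 1 value of 1.43 CPM was the highest of its 9 libraries.

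In Enpa-I/R compared with NS-I/R, 2 of the 16 members were higher and none lower, beside 16.5% of all genes called, 7.75% as higher and 8.74% as lower. The members' 12.5% was below the share called in either direction and, on 2 genes, above the share called as higher. With library totals, 828 genes were called as higher and 2409 as lower, in place of 1401 and 1579. The 2 were H2B genes. This comparison uses the same NS-I/R libraries as the one above, so that opposite signs in the 2 comparisons are not independent. Hist1h2be was higher by 2.37 ± 0.45 on the log2 scale (adjusted p = 0.0137, edgeR), and by 3.43 without NS-I/R 3. The call was lost without NS-I/R 1 (2.07, adjusted p = 0.0531), without Enpa-I/R 1 (2.39, adjusted p = 0.0527) and without Enpa-I/R 3 (2.40, adjusted p = 0.0545). Hist2h2be, at 2.08, 1.82 and 1.60 CPM in Enpa-I/R, was higher by 0.90 ± 0.24 (adjusted p = 0.0344, edgeR), and every Enpa-I/R library exceeded every NS-I/R library. Its call held only without NS-I/R 3 (0.88, adjusted p = 0.0223), and without any other library it gave 0.77 to 0.99 with adjusted p from 0.0506 to 0.131.

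Hist1h4h and Hist3h2a had log2 fold changes of 1.26 ± 0.42 and 1.18 ± 0.46 in the same comparison, which did not pass the test (adjusted p = 0.0656 and 0.0995, edgeR) but did without NS-I/R 3, at 1.79 and 2.17. Hist1h4h also passed with DESeq2 (1.24, adjusted p = 0.0310) and in edgeR with doublets kept (1.36, adjusted p = 0.0444), and DESeq2 called 3 members in place of 2. Hist1h1c and Hist1h2bc stood at 0.15 ± 0.20 and 0.10 ± 0.21. Without NS-I/R 3, 7 members were called, all of them higher, beside 43.7% of all genes, among them Hist2h2ac (0.67 with all libraries, 1.59 without it), Hist1h4i (0.86 and 1.73) and Hist1h1e (0.52 and 1.00). The omission of another library gave 0 (without NS-I/R 1, Enpa-I/R 1 or Enpa-I/R 3) or 1.

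In Enpa-I/R compared with NS-Sham, edgeR called 0 of the 16 members, beside 21.1% of all genes. At an unadjusted p under 0.05 there was 1, Hist1h2be, and DESeq2 also called 0. Hist1h2be was lower by 0.90 ± 0.41 on the log2 scale (adjusted p = 0.148, edgeR), with every Enpa-I/R library below every NS-Sham library. NS-I/R 3 is in neither group compared here, but it enters the shared fit through the spread, the filter on low counts, the scaling and the adjustment. Without NS-I/R 3, the Hist1h2be value stayed at -0.90 and the adjusted p became 0.000267 (edgeR), beside 31.8% of all genes called. A fit on the 6 libraries of the contrast also called it (adjusted p = 0.000404). The 16 log2 fold changes ran from -0.90 to 0.52 with a median of -0.21, against 0.0017 for all genes.

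**Figure D2:**
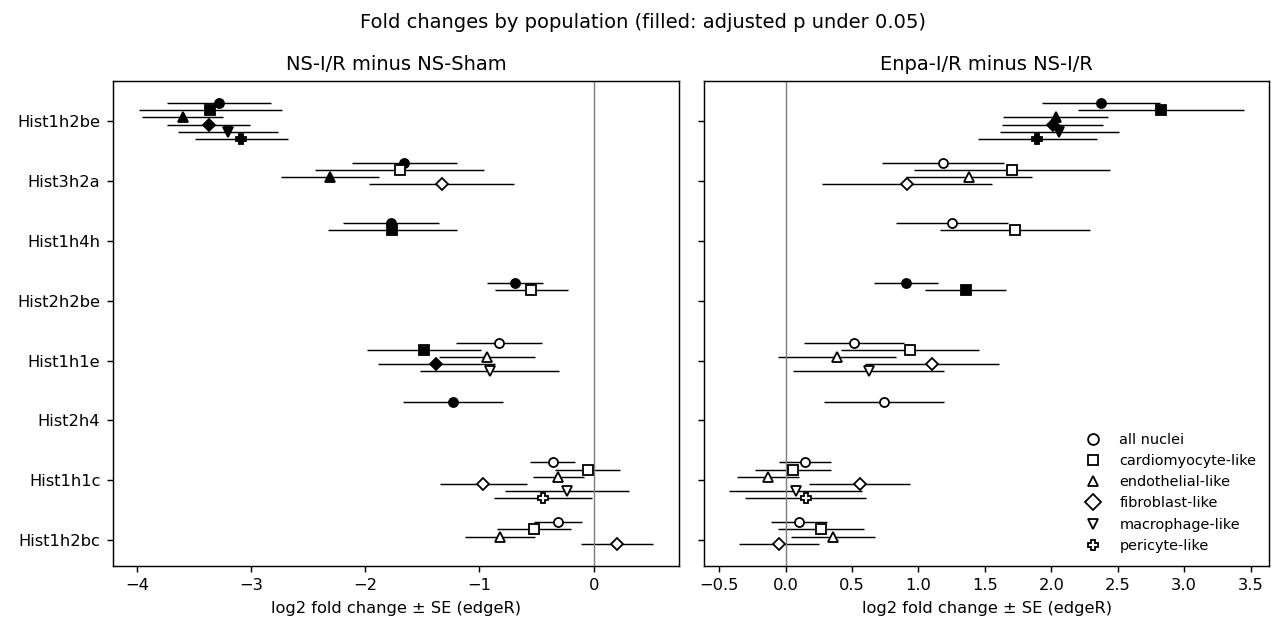
Log2 fold changes with SE (edgeR, horizontal axes) of 8 histone genes (rows) in all nuclei and in 5 cell classes (symbols), for the change from NS-Sham to NS-I/R at left and that from NS-I/R to Enpa-I/R at right; filled symbols have an adjusted p under 0.05. Hist1h2be lies between -3.60 and -3.08 at left in all 6 populations, and Hist1h1c and Hist1h2bc have no filled symbol.

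Within single cell classes the difference in Hist1h2be recurred while most other members were too sparse to test. In cardiomyocyte-like nuclei 7 members were tested and 3 were lower in NS-I/R than in NS-Sham, beside 45.3% of all genes called, 21.6% as lower. Hist1h2be measured 42.4, 32.5 and 26.1 CPM in NS-Sham, 0.946, 0.873 and 8.41 CPM in NS-I/R and 20.4, 25.04 and 23.0 CPM in Enpa-I/R. It fell by 3.36 on the log2 scale (SE 0.63, adjusted p = 0.00188, edgeR), and by 5.20 without NS-I/R 3. Hist1h4h, at 2.58, 2.61 and 4.33 CPM against 0.946, 0.159 and 1.79 CPM, fell by 1.76 (SE 0.57, adjusted p = 0.0271, edgeR). Without NS-I/R 3 it gave -2.59, and its call was lost without NS-Sham 2 (adjusted p = 0.0502), NS-Sham 3 (0.0932) and NS-I/R 1 (0.0641). Hist1h1e, at 1.64, 0.891 and 1.36 CPM against 0.210, 0.397 and 0.736 CPM, fell by 1.48 (SE 0.50, adjusted p = 0.0330, edgeR). Its call was lost without NS-Sham 1 (adjusted p = 0.105), NS-Sham 3 (0.0829), NS-I/R 1 (0.114), NS-I/R 2 (0.101) and Enpa-I/R 1 (0.0523), and also with doublets kept (-1.07, 0.113), at a mitochondrial limit of 20% (-1.05, 0.0901) and with the replicate block (0.0621). The count of 3 ranged from 1 (without NS-Sham 3 or NS-I/R 1) to 4 (without NS-I/R 3, where Hist3h2a was also called at -4.19).

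Between NS-I/R and Enpa-I/R, 2 of the 7 members were higher in the cardiomyocyte-like nuclei of Enpa-I/R, beside 18.8% of all genes called, 7.58% as higher. Hist1h2be was higher by 2.83 ± 0.62 (adjusted p = 0.0189, edgeR) and Hist2h2be, at 2.13, 2.10 and 1.97 CPM against 0.736, 0.793 and 0.946 CPM, by 1.36 ± 0.31 (adjusted p = 0.0200, edgeR). Both calls were lost without NS-I/R 1, NS-I/R 2 or any 1 of the Enpa-I/R libraries, where Hist1h2be gave 2.33 to 2.90 with adjusted p from 0.0561 to 0.0670 and Hist2h2be 1.30 to 1.38 with 0.0586 to 0.0883. Without NS-I/R 3 the count was 4 and Hist1h2be gave 4.67. In Enpa-I/R compared with NS-Sham, edgeR called 0 of the 7, beside 18.2% of all genes, with 1 (Hist2h2be) at an unadjusted p under 0.05 and 0 by DESeq2. Hist1h2be stood there at -0.53 ± 0.54, and was called without NS-I/R 3 (-0.53, adjusted p = 0.0308).

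**Figure D3:**
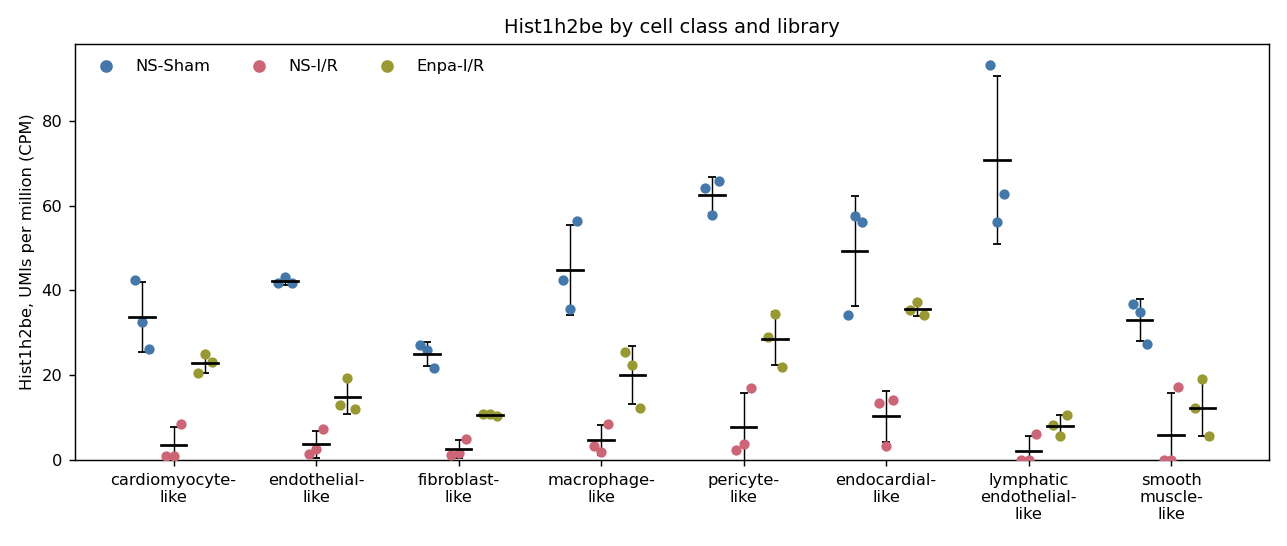
Hist1h2be in CPM (linear axis from 0) by cell class and library; points are libraries, bars group means and error bars SDs of 3 libraries. NS-I/R has the lowest mean in each class shown, with single libraries from 0 CPM to 17.3 CPM, and NS-I/R 3 is the highest NS-I/R library in each.

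In endothelial-like nuclei, 2 of 5 members tested were lower in NS-I/R than in NS-Sham, beside 35.2% of all genes called, 17.1% as lower. Hist1h2be measured 41.7, 43.3 and 41.7 CPM in NS-Sham, 1.29, 2.55 and 7.35 CPM in NS-I/R and 12.9, 19.4 and 12.1 CPM in Enpa-I/R, so the 3 groups did not overlap. It fell by 3.60 (SE 0.35, adjusted p = 9.88e-06, edgeR) from NS-Sham to NS-I/R, and by 4.51 without NS-I/R 3. Hist3h2a, at 6.49, 7.58 and 11.6 CPM against 1.72, 0.851 and 2.75 CPM, fell by 2.31 (SE 0.43, adjusted p = 0.00117, edgeR), a call that held without each library in turn (-2.74 to -1.97). Hist1h2bc, at 13.4, 10.5 and 13.2 CPM against 6.86, 7.24 and 7.81 CPM, did not overlap between the groups and missed the threshold (-0.82 ± 0.31, adjusted p = 0.0510, edgeR). Hist1h1e was also called without NS-I/R 3, at -1.20 (adjusted p = 0.0470). Of this class too, 1 cluster held 36.1% to 40.3% in NS-Sham libraries and 10.06% to 14.96% in NS-I/R, and another 0.301% to 0.682% and 30.6% to 34.1%.

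Fibroblast-like nuclei also had 2 of 5 members tested lower in NS-I/R, beside 46.7% of all genes called, 23.3% as lower. Hist1h2be measured 27.1, 26.0 and 21.7 CPM in NS-Sham, 1.07, 1.67 and 5.01 CPM in NS-I/R and 10.9, 10.8 and 10.4 CPM in Enpa-I/R. It fell by 3.37 (SE 0.36, adjusted p = 2.23e-05, edgeR), and by 4.29 without NS-I/R 3. Hist1h1e, at 3.05, 3.14 and 8.22 CPM against 1.61, 1.19 and 2.83 CPM, fell by 1.38 (SE 0.51, adjusted p = 0.0444, edgeR), with NS-Sham 3 well above its group. Without NS-Sham 3 its log2 fold change was -0.86 (adjusted p = 0.205), and the call was also lost without NS-I/R 1 (0.105), NS-I/R 2 (0.137), Enpa-I/R 1 (0.0577) and Enpa-I/R 2 (0.0612), with doublets kept (-1.20, 0.0836) and at 1000 genes or more per nucleus (-1.29, 0.0538). The count of 2 was 1 in each of those fits but that without Enpa-I/R 2, and 4 without NS-I/R 3, where Hist3h2a (-2.84) and Hist1h1c (-1.28) were also called. The class was spread differently in the groups: 1 fibroblast-like cluster had 58.95% to 71.1% of it in NS-Sham libraries and 0.505% to 8.36% in NS-I/R, and another 0.0699% to 0.463% and 45.2% to 48.3%.

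In macrophage-like nuclei 1 of 3 members tested was lower in NS-I/R, beside 34.8% of all genes called (16.8% as lower), and in pericyte-like nuclei 1 of 2, beside 23.9% (11.8% as lower). In both it was Hist1h2be. Its macrophage-like values were 42.4, 35.5 and 56.3 CPM in NS-Sham, 3.39, 1.89 and 8.58 CPM in NS-I/R and 25.5, 22.4 and 12.3 CPM in Enpa-I/R. Its pericyte-like values were 64.1, 57.8 and 65.8 CPM in NS-Sham, 2.41, 3.69 and 16.9 CPM in NS-I/R and 29.1, 34.5 and 22.03 CPM in Enpa-I/R. The 3 groups did not overlap in either class. Hist1h2be fell by 3.20 (SE 0.43, adjusted p = 4.76e-05, edgeR) in macrophage-like and by 3.08 (SE 0.41, adjusted p = 5.39e-05, edgeR) in pericyte-like nuclei, and without NS-I/R 3 by 3.98 and 4.46.

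With all 9 libraries, Hist1h2be was the sole member called in the other comparisons of these 4 classes. In Enpa-I/R compared with NS-I/R it was higher by 2.03 ± 0.40 in endothelial-like nuclei (adjusted p = 0.0127), by 2.01 ± 0.38 in fibroblast-like (adjusted p = 0.0153), by 2.06 ± 0.45 in macrophage-like (adjusted p = 0.0142) and by 1.89 ± 0.45 in pericyte-like nuclei (adjusted p = 0.0253, all edgeR). The shares of all genes called were 7.22%, 9.66%, 6.34% and 5.89% in that order, and those called as higher 3.18%, 3.73%, 2.88% and 2.83%. Each of these 4 calls was lost without NS-I/R 1 (adjusted p 0.0517, 0.0558, 0.0735 and 0.111 in that order), NS-I/R 2 (0.0634, 0.0618, 0.0614 and 0.104) or Enpa-I/R 2 (0.0590, 0.0690, 0.0620 and 0.0835). The last 3 were also lost without Enpa-I/R 1 (0.0574, 0.0716 and 0.0759), and the fibroblast-like and pericyte-like calls without Enpa-I/R 3 (0.0642 and 0.0662). Over all these fits the log2 fold changes stayed between 1.48 and 2.04. The fits without NS-I/R 3 gave 2.94, 2.93, 2.86 and 3.27, and also called Hist3h2a in endothelial-like (1.82) and fibroblast-like (2.42) nuclei and Hist1h1e in the latter (1.54).

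In Enpa-I/R compared with NS-Sham, Hist1h2be was lower by 1.57 ± 0.28 in endothelial-like nuclei (adjusted p = 0.00277, beside 12.7% of genes called, 5.63% as lower) and by 1.36 ± 0.31 in fibroblast-like nuclei (adjusted p = 0.00781, beside 24.3%, 12.2% as lower, both edgeR). Both calls held without each library in turn (-1.79 to -1.45 and -1.45 to -1.29). It was lower by 1.14 ± 0.36 in macrophage-like nuclei (adjusted p = 0.0381, beside 17.6%, 8.64% as lower) and by 1.19 ± 0.33 in pericyte-like nuclei (adjusted p = 0.0483, beside 5.1%, 2.02% as lower, both edgeR). These 2 calls were lost without any 1 of the NS-Sham or Enpa-I/R libraries, where the macrophage-like value ran from -1.33 to -0.91 (adjusted p 0.0589 to 0.140) and the pericyte-like value from -1.32 to -1.05 (0.0981 to 0.204). Whether the classes differed from each other in the size of the change was not tested.

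In 3 smaller classes the Hist1h2be means had the same order. Endocardial-like nuclei gave 34.3, 57.5 and 56.2 CPM in NS-Sham, 13.4, 3.20 and 14.1 CPM in NS-I/R and 35.3, 37.2 and 34.2 CPM in Enpa-I/R. Lymphatic endothelial-like nuclei gave 93.2, 56.1 and 62.7 CPM, then 0, 0 and 6.15 CPM, then 8.13, 5.58 and 10.6 CPM, the Enpa-I/R libraries overlapping those of NS-I/R. Smooth muscle-like nuclei gave 36.8, 34.9 and 27.3 CPM, then 0, 0 and 17.3 CPM, then 12.3, 19.1 and 5.55 CPM. Neutrophil-like nuclei, of which NS-Sham had 5, gave 12.6, 10.5 and 9.52 CPM in NS-I/R and 12.9, 23.8 and 32.5 CPM in Enpa-I/R. These values rest on 2 to 80 UMIs a group and were not tested.

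The difference was present inside clusters as well as between them. Of the 14 clusters with at least 25 nuclei in every NS-Sham and NS-I/R library, all 14 had a lower mean Hist1h2be CPM in NS-I/R, and in 12 the groups did not overlap. The 2 with overlap were a fibroblast-like cluster of 656 nuclei and an endothelial-like cluster of 1047 nuclei. In the main cardiomyocyte-like cluster of NS-Sham, Hist1h2be measured 41.7, 32.2 and 27.1 CPM in NS-Sham, 0, 0.925 and 16.2 CPM in NS-I/R and 25.9, 39.2 and 30.4 CPM in Enpa-I/R. The high NS-I/R value came from NS-I/R 3, and the Enpa-I/R libraries lay within the NS-Sham range or, in Enpa-I/R 1, just under it. In the cluster that held the largest share of the cardiomyocyte-like nuclei of Enpa-I/R (37.1%, against 3.98% for NS-Sham and 38.1% for NS-I/R), the values were 44.3, 21.8 and 18.8 CPM, then 1.10, 0.632 and 6.78 CPM, then 15.1, 10.0 and 15.5 CPM. Between NS-I/R and Enpa-I/R, 18 of 19 such clusters had a higher mean in Enpa-I/R and 11 did not overlap. Other members also had lower NS-I/R means in most of the 14 clusters. Hist3h2a was lower in 13 (6 without overlap), Hist1h4h in 12 (3 without overlap) and Hist1h1e in 12 (2 without overlap). Hist1h1c, by contrast, had a lower NS-I/R mean in 7 of the 14 clusters and a higher one in 7, with overlap in every one.

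Free RNA from other cells can enter any nucleus, and markers of other types moved with the groups. In endothelial-like nuclei the 7 cardiomyocyte markers summed to between 4875 and 5400 CPM for NS-Sham, between 2493 and 3066 CPM for NS-I/R and between 3110 and 4423 CPM for Enpa-I/R. In the same nuclei the 6 neutrophil markers summed to 0.464 to 1.58 CPM, 88.1 to 228 CPM and 41.6 to 59.0 CPM, 1 of the 6 being at 0 in NS-Sham. Neutrophil-like nuclei were 0.0294% to 0.0598% of NS-Sham libraries, 7.77% to 10.2% of NS-I/R libraries and 1.20% to 4.91% of Enpa-I/R libraries. Hist1h2be was at 42.5 CPM (exact 95% interval 38.1 to 47.2, counting error only) in the pooled NS-Sham endothelial-like nuclei. It was at 33.5 CPM (31.5 to 35.5) in the cardiomyocyte-like and 25.4 CPM (22.4 to 28.7) in the fibroblast-like nuclei. By NS-Sham library means, pericyte-like (62.6 CPM), endocardial-like (49.3 CPM) and lymphatic endothelial-like (70.7 CPM) nuclei also lay above the cardiomyocyte-like 33.7 CPM. Smooth muscle-like nuclei, at 33.0 CPM, did not. The part of free RNA in the differences was not tested.

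Since these genes are named for replication, their levels were also compared between nuclei with and without messages of dividing cells. A list of 20 mitosis genes served for this, and a nucleus counted as mitosis-positive with at least 2 UMIs over the list, which 1166 of 41979 nuclei had. The class is a range and not a cell type: 727 of the 1166 had exactly 2 UMIs, and a further 3444 nuclei had exactly 1. Mitosis-positive nuclei were deeper, with a median of 7449.5 UMIs against 2562. The members summed to 52.4 CPM in them and to 51.7 CPM in the others, a ratio of 1.01, and the ratio ran from 0.662 to 1.80 over the 9 libraries. The sum mixes classes, since 496 of the 1166 were cardiomyocyte-like. Within classes the ratio was 0.829 in cardiomyocyte-like, 1.79 in endothelial-like, 1.97 in fibroblast-like and 2.48 in macrophage-like nuclei. No test was made of these values.

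Single members differed widely behind that sum. Hist1h1b, a linker histone, measured 2.79 CPM in mitosis-positive nuclei and 0.316 CPM in the others, and was higher in the positive nuclei of 8 of 9 libraries. Hist1h2ap, an H2A gene, measured 2.87 against 0.440 CPM (7 of 9 libraries), Hist1h2ae 1.13 against 0.260 CPM (7 of 9) and Hist1h2bj, an H2B gene, 0.603 against 0.0565 CPM (5 of 9). These 4 genes were singled out after their values were seen, and they rest on 8 to 38 UMIs in positive nuclei. Hist1h2be, Hist1h1c and Hist1h2bc, which had the most UMIs, did not show this with classes pooled. Hist1h2be measured 15.4 against 19.7 CPM and was higher in the positive nuclei of 1 library. Hist1h1c measured 6.26 against 8.46 CPM and Hist1h2bc 5.66 against 6.29 CPM, whereas Hist1h1e measured 4.07 against 3.06 CPM (4 of 9 libraries). Within macrophage-like nuclei, groups pooled, Hist1h2be measured 30.6 against 18.5 CPM and Hist1h1e 30.6 against 9.73 CPM, on 19 UMIs each in positive nuclei. NS-Sham gave 14 and 13 of these UMIs. By group, Hist1h2be measured 61.0 against 39.1 CPM in NS-Sham, 0 against 5.15 CPM in NS-I/R and 29.0 against 20.3 CPM in Enpa-I/R. Hist1h1e measured 56.7 against 8.56, 4.56 against 8.49 and 29.0 against 11.7 CPM in that order, so NS-I/R went the other way for both. In the pooled macrophage-like nuclei, Hist1h2bc measured 8.05 against 5.52 CPM and Hist1h1c 6.44 against 10.2 CPM, on 5 and 4 UMIs. In the 125 nuclei with at least 6 UMIs over the list, Hist1h1b stood at 30.9 CPM and Hist1h2ap at 28.8 CPM, while Hist1h1c stood at 8.24 CPM against 8.30 CPM in all other nuclei. Hist1h2be stood at 39.1 against 19.3 CPM there, on 38 UMIs.

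**Figure D4:**
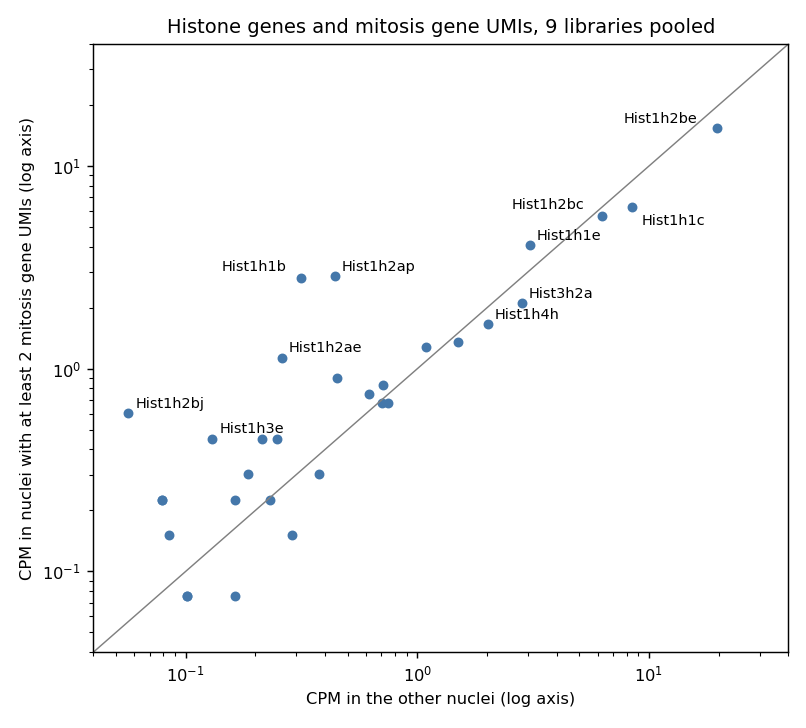
Level of each histone gene in nuclei with at least 2 UMIs over 20 mitosis genes (vertical axis) against its level in all other nuclei (horizontal axis), in CPM on log axes, over all 9 libraries; each point is 1 gene and the line marks equal levels. Hist1h1b, Hist1h2ap, Hist1h2ae and Hist1h2bj lie well above the line, and Hist1h2be, Hist1h1c and Hist1h2bc lie below it.

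In NS-Sham, 8.50% of macrophage-like nuclei were mitosis-positive, above the cardiomyocyte-like (5.53%), fibroblast-like (1.78%) and endothelial-like (0.970%) shares. NS-I/R had a macrophage-like share of 3.55% and Enpa-I/R one of 2.72% (pooled, unthinned). The NS-Sham libraries spread from 6% to 14.4%. In NS-Sham the members summed to 327 CPM in the positive macrophage-like nuclei and 99.0 CPM in the others, in NS-I/R to 45.6 and 44.5 CPM, and in Enpa-I/R to 157 and 86.4 CPM. NS-Sham 3 alone gave 47 of the 75 member UMIs in the positive NS-Sham nuclei, and the NS-I/R and Enpa-I/R sums rest on 10 and 27 UMIs.

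The machinery around histone messages was read from 5 gene lists. Of 17 genes that make, process or degrade histone messages, 16 were tested over all nuclei. Of these, 6 were higher in NS-I/R than in NS-Sham while none was lower, with a median log2 fold change of 0.17. Among all genes, 23.9% were called in each direction. The 4 with the highest levels, the cleavage and polyadenylation factors Wdr33, Fip1l1 and Sympk and the cap-binding partner Srrt, were not called, at 0.09, 0.07, 0.21 and 0.19. Slbp, which binds the stem-loop and was singled out after its value was seen, was higher by 0.37 ± 0.11 (adjusted p = 0.0147, edgeR). In Enpa-I/R compared with NS-I/R none of the 16 was higher and 2 were lower, beside 8.74% of all genes called as lower.

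Replacement histones are made outside S phase from polyadenylated messages. Of 11 tested, 4 were higher and 3 lower in NS-I/R than in NS-Sham, beside 23.9% of all genes in each direction. H3f3b, which encodes H3.3, measured 32.2, 34.9 and 47.2 CPM in NS-Sham, 125, 111 and 93.0 CPM in NS-I/R and 52.0, 63.2 and 54.1 CPM in Enpa-I/R, with no overlap between groups. It was higher by 1.41 ± 0.17 in NS-I/R than in NS-Sham (adjusted p = 0.000133) and lower in Enpa-I/R than in NS-I/R (log2 fold change -0.88 ± 0.17, adjusted p = 0.0139, both edgeR). H3f3a, which encodes the same protein, was not called (-0.15 ± 0.12). H2afv, an H2A.Z gene, fell by 1.28 on the log2 scale (SE 0.11, adjusted p = 2.35e-05, edgeR) and H2afy, which encodes macroH2A, was higher by 0.48 ± 0.11 (adjusted p = 0.00660, edgeR). Of 12 histone chaperones 6 were higher and none lower, beside the same 23.9% of all genes in each direction. Supt16, a subunit of FACT, was higher by 0.56 ± 0.10 (adjusted p = 0.00103, edgeR), whereas Atrx, Ubn1 and Hira were not called, at 0.08, 0.06 and 0.31.

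Among 22 S-phase genes, 6 were higher and 1 lower in NS-I/R than in NS-Sham over all nuclei, near the 23.9% of all genes called as higher. In macrophage-like nuclei none of 10 tested was higher and 3 were lower, beside 34.8% of all genes called, 16.8% as lower. Pcna, the sliding clamp of replication, measured 5.86, 6.01 and 5.28 CPM in NS-Sham, 12.7, 11.2 and 10.5 CPM in NS-I/R and 7.95, 8.50 and 7.70 CPM in Enpa-I/R. It was higher by 0.88 ± 0.14 (adjusted p = 0.000756, edgeR), and Tyms, thymidylate synthase, by 0.73 ± 0.20 (adjusted p = 0.0119, edgeR), whereas Mcm6 and Pola1 were not called, at 0.32 and -0.20. Among 20 mitosis genes, 1 was higher and 7 lower over all nuclei, beside 23.9% of all genes in each direction. Cenpf, a kinetochore protein, fell by 2.07 (SE 0.35, adjusted p = 0.000953), Top2a, a topoisomerase of dividing cells, by 1.24 (SE 0.42, adjusted p = 0.0328), Mki67 by 0.97 (SE 0.32, adjusted p = 0.0303) and Kif20b by 0.55 (SE 0.20, adjusted p = 0.0469, all edgeR), while Anln and Nusap1 were not called, at 0.77 and 0.62. The classes did not share one direction. In cardiomyocyte-like nuclei 5 of 9 mitosis genes tested were higher in NS-I/R than in NS-Sham and 1 was lower, with a median of 1.46, beside 45.3% of all genes called. In macrophage-like nuclei 12 of 13 mitosis genes tested were lower in NS-I/R than in NS-Sham, with a median of -2.30, and 12 of 13 were lower in Enpa-I/R than in NS-Sham, with a median of -2.74, beside 16.8% and 8.64% of all genes. Different clusters held these nuclei: 1 macrophage-like cluster had 92.4% to 94.2% of the class in NS-Sham libraries, 40.6% to 53.4% in NS-I/R and 59.7% to 63.3% in Enpa-I/R, and another had 5.80% to 7.60%, 46.6% to 59.4% and 36.7% to 40.3%. The part of this shift in the differences was not tested. A gene could pass the filter on low counts through the 3 libraries of 1 group alone. The 13 mitosis genes tested in macrophage-like nuclei may therefore include some that passed only through NS-Sham. Their counts and medians may lean toward lower for that reason, which was not tested. Top2a measured 15.7, 57.0 and 184 CPM in the NS-Sham macrophage-like nuclei, 13.5, 14.2 and 3.12 CPM in NS-I/R and 17.6, 6.94 and 12.3 CPM in Enpa-I/R, so NS-Sham 3 was far above its group and NS-Sham 1 lay within the Enpa-I/R range.

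Barcodes with more than 5% mitochondrial UMIs were not counted as nuclei, and they gave a second reading of the same libraries. Levels there were taken over the UMIs outside the mitochondrial genes. Hist1h1c measured 42.6 CPM over these barcodes and 8.38 CPM over the nuclei kept, a ratio of 5.08, Hist1h2bc 34.1 and 6.31 CPM (5.41) and Hist1h4h 15.99 and 2.01 CPM (7.96), and each was higher in all 9 libraries. Among 16000 genes with at least 200 UMIs in these barcodes and the nuclei kept together, 9 of them members, the median ratio was 0.917, and 2.16%, 1.82% and 0.638% of genes had a higher ratio than these 3. Hist1h2be did not share this, at 15.96 against 19.6 CPM (0.813), with a higher level over the limit in 2 of 9 libraries. Its ratio was near the median, and 62.2% of genes had a higher one. Of all member UMIs, 65.4% were in the nuclei kept.

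**Figure D5:**
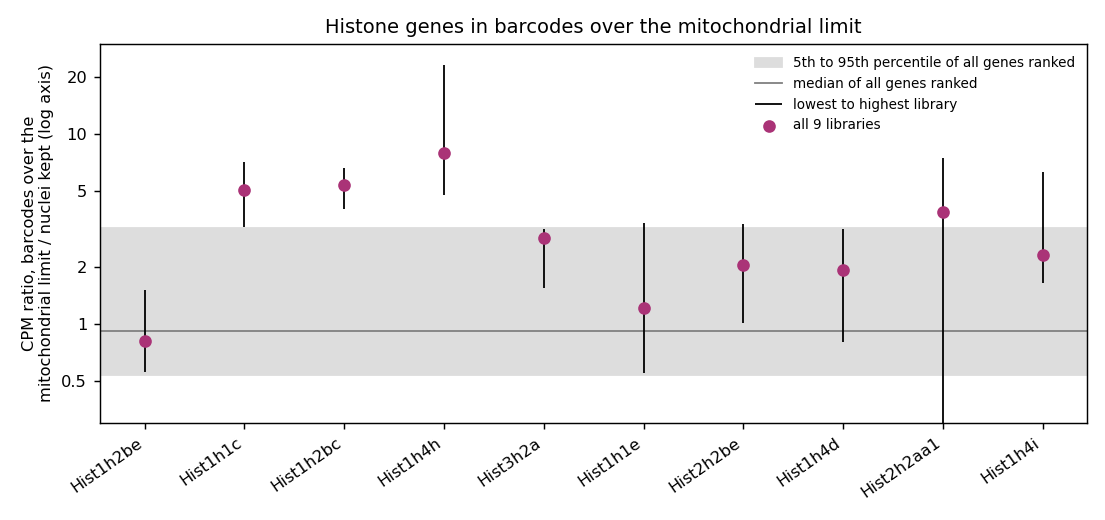
Ratio of each histone gene's level in barcodes over the mitochondrial limit to its level in the nuclei kept (vertical log axis, no unit) for the 10 members with at least 200 UMIs over all barcodes; points are the 9 libraries together, vertical lines run from the lowest to the highest library, and the grey line and band are the median and the 5th to 95th percentile of all genes ranked. Hist1h4h, Hist1h2bc and Hist1h1c lie at 5.08 to 7.96 and Hist1h2be at 0.813; the axis starts at 0.3, so the lowest library of Hist2h2aa1, with a ratio of 0, is off the scale.

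In the barcodes over the limit, Hist1h2be measured 34.9, 19.8 and 19.7 CPM in NS-Sham, 3.29, 1.59 and 9.42 CPM in NS-I/R and 10.4, 16.2 and 13.3 CPM in Enpa-I/R. The groups did not overlap, as in the nuclei. Hist1h1c measured 36.8, 26.7 and 35.5 CPM in NS-Sham, 43.6, 46.2 and 46.4 CPM in NS-I/R and 49.7, 42.1 and 60.8 CPM in Enpa-I/R, so all 6 libraries with ischemia lay above the NS-Sham libraries here, whereas in the nuclei the groups overlapped. Hist3h2a measured 10.6, 10.1 and 11.0 CPM, then 1.23, 1.99 and 7.24 CPM, then 7.80, 7.34 and 8.64 CPM, with NS-I/R 3 again the highest of its group. No test between groups was made in these barcodes.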

How the data were processed

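The members and gene lists were chosen with earlier results of these data known. The authors deposited raw UMI counts per gene and barcode for 9 libraries, 3 per group (10x 3′ kit version 3.1, per the labels' protocols). The file headers name Cell Ranger 8.0.0, whereas the submitters' processing notes name Cell Ranger 6.1.1, Seurat and the builds GRCh38 and GRCm39, with no role given. All deposited count columns were assigned to a sample.

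Barcodes with at least 500 genes and at most 5% mitochondrial UMIs were kept, and Scrublet's highest scores (0.8% of barcodes per 1000 barcodes) were removed as doublets. Median depth was 2365 to 3263.5 UMIs per nucleus. Clustering (scanpy 1.11.5, 2000 variable genes, 30 components, 15 neighbours, Leiden resolution 1) left out the histone genes and the 5 lists. Clusters were named from at least 3 markers, each in 5% of nuclei and at least 2-fold over the median cluster. These naming limits were set after seeing the data, so shares of classes may depend on them. Tests covered 6 populations, all nuclei and 5 named classes, each of which had 25 or more nuclei per library.

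For each library and class the counts were added up and tested with edgeR 4.0.16 (quasi-likelihood, TMM, filterByExpr, all 9 libraries in 1 fit, R 4.3.3), with Benjamini-Hochberg adjustment at 0.05. CPM values are UMIs per 1000000 without TMM. Intervals are exact and cover counting error only. Named members were the 8 with the most UMIs and up to 6 called members per comparison. From each list the 4 genes with the highest level were named, with Mki67 and Top2a. On simulated counts for Enpa-I/R minus NS-I/R with 200 genes changed by 1 on the log2 scale, the test found 61.5% over all nuclei (17793 genes), 46% in cardiomyocyte-like, 70% in endothelial-like, 68% in fibroblast-like, 50% in macrophage-like and 49.5% in pericyte-like nuclei. Alternatives were DESeq2 1.42.0, other scalings, filters, nucleus limits, a replicate block and the omission of each library. Gene models are GENCODE M21 (GRCm38), which matched 32158 of 32285 gene IDs, and promoters RefSeq GRCm38.p6.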

Additional observations from a re-analysis of the deposited data

How the results depend on the processing

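Of 26 named fold changes that passed the threshold, 10 passed under every alternative run and none changed sign. Of 18 that did not pass, 12 never passed. The counts of members called, in the order NS-I/R minus NS-Sham, Enpa-I/R minus NS-I/R and Enpa-I/R minus NS-Sham, were 5, 2 and 0 over all nuclei, 3, 2 and 0 in cardiomyocyte-like, 2, 1 and 1 in endothelial-like and in fibroblast-like, and 1, 1 and 1 in macrophage-like and in pericyte-like nuclei. Leaving out 1 library gave 2 to 8, 0 to 7 and 0 to 1 over all nuclei, 1 to 4, 0 to 4 and 0 to 1 in cardiomyocyte-like, 2 to 3, 0 to 2 and 1 in endothelial-like, 1 to 4, 0 to 3 and 1 in fibroblast-like, and 1, 0 to 1 and 0 to 1 in macrophage-like and in pericyte-like nuclei. A fit on the 6 libraries of a contrast gave 3, 0 and 1 over all nuclei, 1, 0 and 1 in cardiomyocyte-like, 1 and 0 in the first 2 comparisons of fibroblast-like and 0 in the second of pericyte-like nuclei, with fewer samples. DESeq2's Wald test gave 3 for the first comparison over all nuclei and 3 for the second over all nuclei and in cardiomyocyte-like nuclei. Library totals without TMM, chosen after seeing the data, gave 3 for the first comparison over all nuclei, 1 in fibroblast-like and 0 for the third in pericyte-like nuclei. Without the low-count filter, the first comparison gave 5 in cardiomyocyte-like, 6 in fibroblast-like and 4 in macrophage-like nuclei, and the second gave 4 in cardiomyocyte-like nuclei. A mitochondrial limit of 20% gave 2 for the second and for the third comparison in endothelial-like, 2 for the first and 0 for the third in macrophage-like, and 0 for the second and the third in pericyte-like nuclei. At least 1000 genes per nucleus gave 2 for the second comparison in endothelial-like and 0 for the third in pericyte-like nuclei. With doublets kept the first comparison gave 1 in fibroblast-like and 2 in macrophage-like nuclei, and the third gave 2 in macrophage-like nuclei. The cause of these shifts was not tested. With the replicate number as a block, the counts became 3 and 1 in the first 2 comparisons over all nuclei, and 0 for the third in macrophage-like and in pericyte-like nuclei. Same-numbered libraries correlated at -0.141 to 0.109 and others at -0.108 to 0.136, which gave no sign of pairing by number. With 3 libraries per group this check cannot exclude such pairing. Signs changed for uncalled values. From NS-I/R to Enpa-I/R, leaving out 1 library gave Hist1h2bc -0.030 (without NS-I/R 2) to 0.24 and Hist1h1c -0.022 (without NS-I/R 1) to 0.32. From NS-Sham to Enpa-I/R it gave Hist1h4d -0.33 to 0.094 (without NS-Sham 3) and Hist1h1e -0.56 to 0.014 (without NS-Sham 3), while Hist2h2be was -0.035 at the 20% limit and Hist1h4d 0.018 with doublets kept. The summed histone ratio of mitosis-positive to other nuclei was 0.892 with at least 1 mitosis UMI and 1.31 with at least 3.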
